A study of Mus musculus with 20 samples.

Results

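ATP-binding cassette (ABC) transporter genes were examined in the livers of mice given corticosterone, the main glucocorticoid of rodents, with or without an antibody that neutralizes acyl coenzyme A binding protein (ACBP, also named DBI). The genes were chosen by symbol, as the entries of subfamilies Abca to Abcg with 1 entry of subfamily B left out by the rule, which gave 49 of the 48440 genes counted: 16 of subfamily A, 9 of B, 10 of C, 4 of D, 1 of E, 3 of F and 6 of G. The rule used no measured value, but it was chosen with earlier results of these data known. Liver RNA of 20 wild-type female C57BL/6 mice, 8 weeks old at the start, had been sequenced, 5 livers in each of 4 groups. Mice drank corticosterone (CORT, 100 µg per ml) or vehicle for 5 weeks, and every mouse was also injected with an antibody at 5 mg per kg of body weight, either the antibody to ACBP (αACBP) or an isotype control. The groups are named Isotype + Vehicle, αACBP + Vehicle, Isotype + CORT and αACBP + CORT. The question was which of these transporters differed with CORT, with αACBP and with both.

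ABC transporters bind ATP at cytosolic domains and use its hydrolysis to move a substrate across a membrane. In hepatocytes, those of the canalicular membrane pass sterols, phospholipids, bile salts and conjugated metabolites into bile, those of the basolateral membrane return conjugates to blood, and others serve peroxisomes, mitochondria or lysosomes. Subfamilies E and F keep the ATP-binding domains but lack membrane domains, and act on ribosomes and translation. Several ABC genes are known targets of nuclear receptors that sense sterols, bile acids or foreign compounds.

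All 49 genes were placed on GRCm38.p6 with the RefSeq gene table. Abcg5 and Abcg8, whose products together form the canalicular sterol exporter, lie head to head on chromosome 17. The start sites used for their promoter windows are 109 bases apart. The full RefSeq span of Abcg8 (84676302 to 84700333) begins inside that of Abcg5 (84658174 to 84683011). Abcb1a, Abcb1b and Abcb4 follow each other on chromosome 5, and Abca8b, Abca8a, Abca9, Abca6 and Abca5 on chromosome 11. The RefSeq sequences from 250 bases before to 50 bases after the start site are shown for 3 genes whose levels differed with a treatment: Abcg5, whose window is shared in large part with Abcg8 on the other strand, Abcc10 and Abcb4. Capitals mark the searched motifs on either strand: TGTTCT, a short glucocorticoid receptor motif, and TATAAA in Abcg5; AGGTCA, a short nuclear receptor motif, overlapping TGACNNNGC, the core of an NRF2 element, and then GGGCGG boxes in Abcc10; TGTTCT and GGGCGG in Abcb4.
Abcg5 (chr17:84682962-84683261, minus strand): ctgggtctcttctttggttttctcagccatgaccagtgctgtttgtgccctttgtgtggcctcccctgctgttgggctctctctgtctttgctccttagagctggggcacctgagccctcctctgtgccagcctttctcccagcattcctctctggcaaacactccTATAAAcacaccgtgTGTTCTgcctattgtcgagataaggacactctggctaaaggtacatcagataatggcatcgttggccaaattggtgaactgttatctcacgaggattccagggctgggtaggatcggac
Abcc10 (chr17:46327974-46328273, minus strand): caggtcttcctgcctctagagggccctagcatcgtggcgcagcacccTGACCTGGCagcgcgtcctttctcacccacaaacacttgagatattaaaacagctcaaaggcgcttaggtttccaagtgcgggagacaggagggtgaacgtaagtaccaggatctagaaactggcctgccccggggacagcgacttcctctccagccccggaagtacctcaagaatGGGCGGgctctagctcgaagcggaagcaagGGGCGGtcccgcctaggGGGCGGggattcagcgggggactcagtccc
Abcb4 (chr5:8893471-8893770, plus strand): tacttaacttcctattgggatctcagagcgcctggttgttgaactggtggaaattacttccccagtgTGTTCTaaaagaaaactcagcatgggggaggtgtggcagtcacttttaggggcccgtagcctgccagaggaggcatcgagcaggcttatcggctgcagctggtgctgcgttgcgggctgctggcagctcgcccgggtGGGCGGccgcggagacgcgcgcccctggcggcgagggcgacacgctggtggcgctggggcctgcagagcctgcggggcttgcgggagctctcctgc
TGTTCT was present in 9 of the 37 ABC gene windows found in the table, and in 18.97% of all 32851 windows of that length. AGGTCA was in 4 of the 37 (16.3% of all windows), TGACNNNGC in 5 (12.4%), the E-box CACGTG in 6 (7.15%), GGGCGG in 17 (35.7%) and TATAAA in 6 (13.6%). A match describes these letters only, and no binding was measured here.

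The deposited counts on genes summed to between 14934926 and 20299999 per liver. Before any correction of library size, 3 counts, taken as the lowest level the depth could show, were at most 0.201 CPM (counts scaled to library size). Library sizes were corrected with edgeR's TMM factors, which lay between 0.880 and 1.29, with the highest in αACBP + Vehicle replicate 5. The floor of 0.201 CPM does not carry these factors, which the other CPM do, and covers counting error only. The summed CPM of 8 hepatocyte markers lay between 39463 and 143010 in all livers and was lowest in that same liver. Markers of other liver cells were present in every group, and all values are therefore those of a cell mixture, in which fewer cells of a type and less RNA per cell cannot be told apart.

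Counts were found for 44 of the 49 genes. Abca12, Abca13, Abca16, Abcb5 and Abcc8 had 0 counts in all 20 livers, which allows up to 0.201 CPM in a liver before the TMM correction. Another 5 genes, Abca4, Abca15, Abca17, Abcc12 and Abcg4, did not pass edgeR's filter on low counts and had at most 1.17 CPM in any liver. The 39 genes left were tested among 16071 genes.

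To compare levels between genes, CPM were divided by the exon length of each gene in kilobases. Abcc6, a hepatocyte exporter of the basolateral side that is needed for normal plasma pyrophosphate, had the highest mean level over the 20 livers (69.6 CPM per kilobase, range 39.5 to 119.7). Abcg5 followed with 63.3 (34.6 to 130), Abcc2, which exports bilirubin and other conjugates into bile, with 48.1 (38.4 to 62.0), Abcc3, which exports conjugates to blood, with 45.0 (31.4 to 68.8), and Abcd3, which imports acyl-CoA into peroxisomes, with 38.2 (22.4 to 91.4). The ranges of these neighbours over livers overlapped, so that their order is not fixed. Abcg8 had 26.9 and Abcb4, which moves phosphatidylcholine into bile, 17.6 CPM per kilobase. The drug exporter genes Abcb1a (1.05), Abcc4 (0.452), Abcc1 (0.196) and Abcb1b (0.0346) were near the lower end of the tested genes. Exon lengths came from a later annotation and include all annotated exons, which lowers the level of genes with long models.

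**Figure D1:**
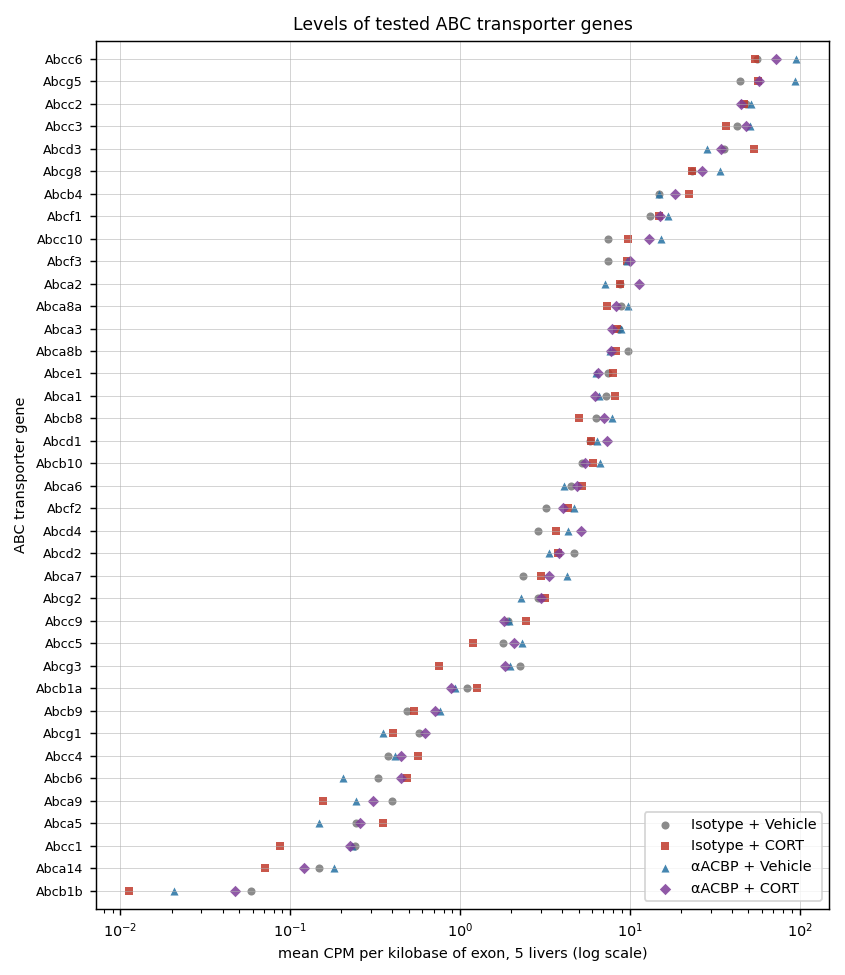
Mean level of the tested ABC transporter genes, with 1 not plotted, in the 4 groups, as CPM per kilobase of exon on a log axis, with genes ordered by their mean over all livers. Each symbol is the mean of 5 livers. Abcc6 and Abcg5 lie at the top, with their αACBP + Vehicle means to the right of the other groups, and Abcb1b at the bottom.

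Summed per kilobase, subfamily C made up a median of 40.8% of the ABC transcripts of a liver, subfamily G 19.9%, A and D 11.4% each, B 7.84%, F 6.26% and E 1.55%. Subfamily G made up 26.5% in the median αACBP + Vehicle liver, against 18.6% in Isotype + Vehicle, 19.5% in Isotype + CORT and 19.7% in αACBP + CORT. Its summed level was 89.1 to 175 CPM per kilobase in αACBP + Vehicle livers and 64.2 to 92.9 in Isotype + Vehicle livers, ranges that overlapped by 1 liver on each side. Subfamily C had 187 to 272 in αACBP + Vehicle and 133 to 195 in Isotype + Vehicle livers. Subfamily F had 29.2 to 36.7 and 22.6 to 25.1, without overlap, and 24.6 to 33.3 in Isotype + CORT livers. Subfamilies A, B, D and E overlapped between the 2 vehicle groups. These sums were not tested, and most of the sums of C and G is that of Abcc6, Abcc2, Abcc3, Abcg5 and Abcg8.

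**Figure D2:**
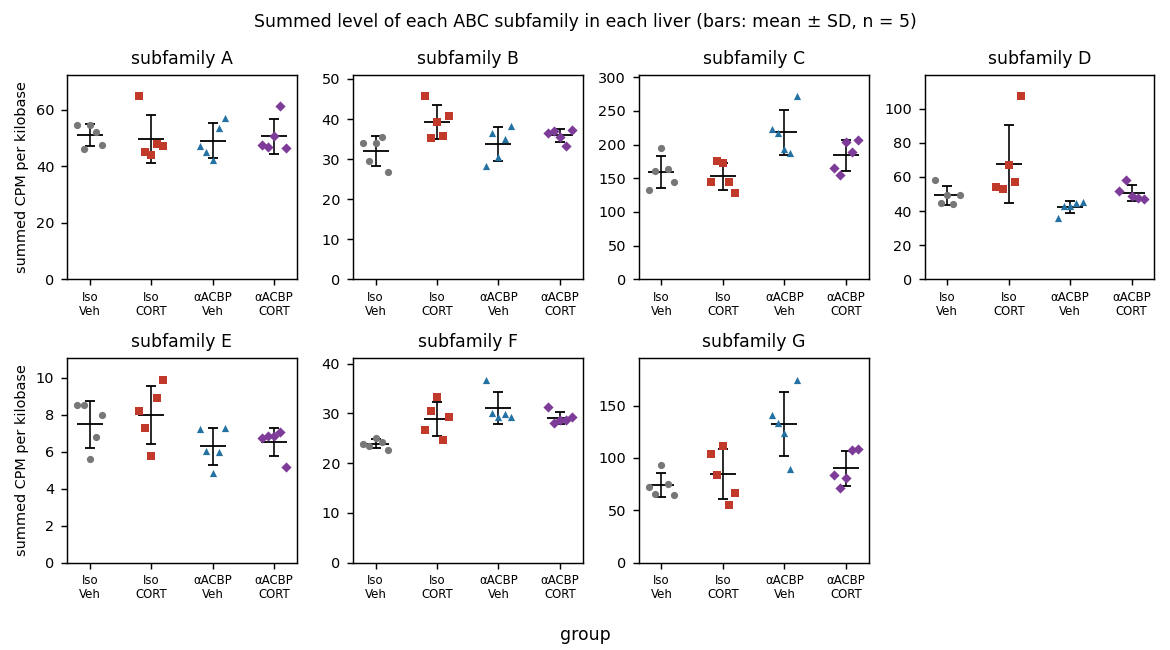
Summed CPM per kilobase of each ABC subfamily in each liver, from 0, with 5 livers per group and bars for mean ± SD. Subfamilies C, F and G have their highest group means in αACBP + Vehicle livers, and 1 Isotype + CORT liver stands high for subfamily D, at 107 CPM per kilobase.

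Each gene was tested in 1 edgeR model of the 4 groups, with p-values adjusted over all genes tested, and was called changed at an adjusted p of at most 0.05. With CORT under isotype, 2 of the 39 ABC genes were called (1 rose, 1 fell), while 3.2% of all tested genes were. With a log2 fold change of at least 1 in addition, 1 was called, and 1.94% of all genes. With αACBP under vehicle, 5 of 39 were called (4 rose, 1 fell), against 5.14% of all genes, and 2 with the fold limit, against 1.3%. Over the 39 genes, log2 fold changes had a median of 0.10 for CORT under isotype and 0.03 for αACBP under vehicle, beside 0.0022 and -0.02 over all tested genes. The comparisons share groups, and their calls are not independent of each other.

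With αACBP under CORT, edgeR called 0 of the 39 genes (0.958% of all genes). At an unadjusted p of at most 0.05 there were 11 (12.5% of all genes), of which Abcb8, Abcc1, Abcc3, Abcc5, Abcc6, Abcc10, Abcd4 and Abcg3 were higher and Abca1, Abcc9 and Abcd3 lower with αACBP. DESeq2 called 3, Abcc5, Abcd3 and Abcg3 (2.91% of all genes), and limma's voom with a quality weight per liver called 0 (0.691%). With CORT under αACBP, edgeR called 0 (0.305%), with 4 at an unadjusted p of at most 0.05 (12.7%), Abca2 and Abcg2 higher and Abcc6 and Abcg5 lower with CORT. The other tools called 0 of the 29 genes that DESeq2 gave an adjusted p (3.15%), and 0 by voom (2.56%). Between αACBP + CORT and Isotype + Vehicle, edgeR called 0 (0.0809%), with 4 before adjustment (7.59%), DESeq2 called 2 of 29, Abcc10 and Abcd4 (1.32%), and voom 3, the same 2 and Abcf3 (3.62%). For the interaction, the difference between the CORT effects under the antibodies, edgeR called 0 (0.143%), with 6 before adjustment (10.6%), DESeq2 0 of 31 (2.28%) and voom 0 (0.33%). Thus no ABC gene was shown by edgeR to respond differently to CORT under αACBP and under isotype.

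**Figure D3:**
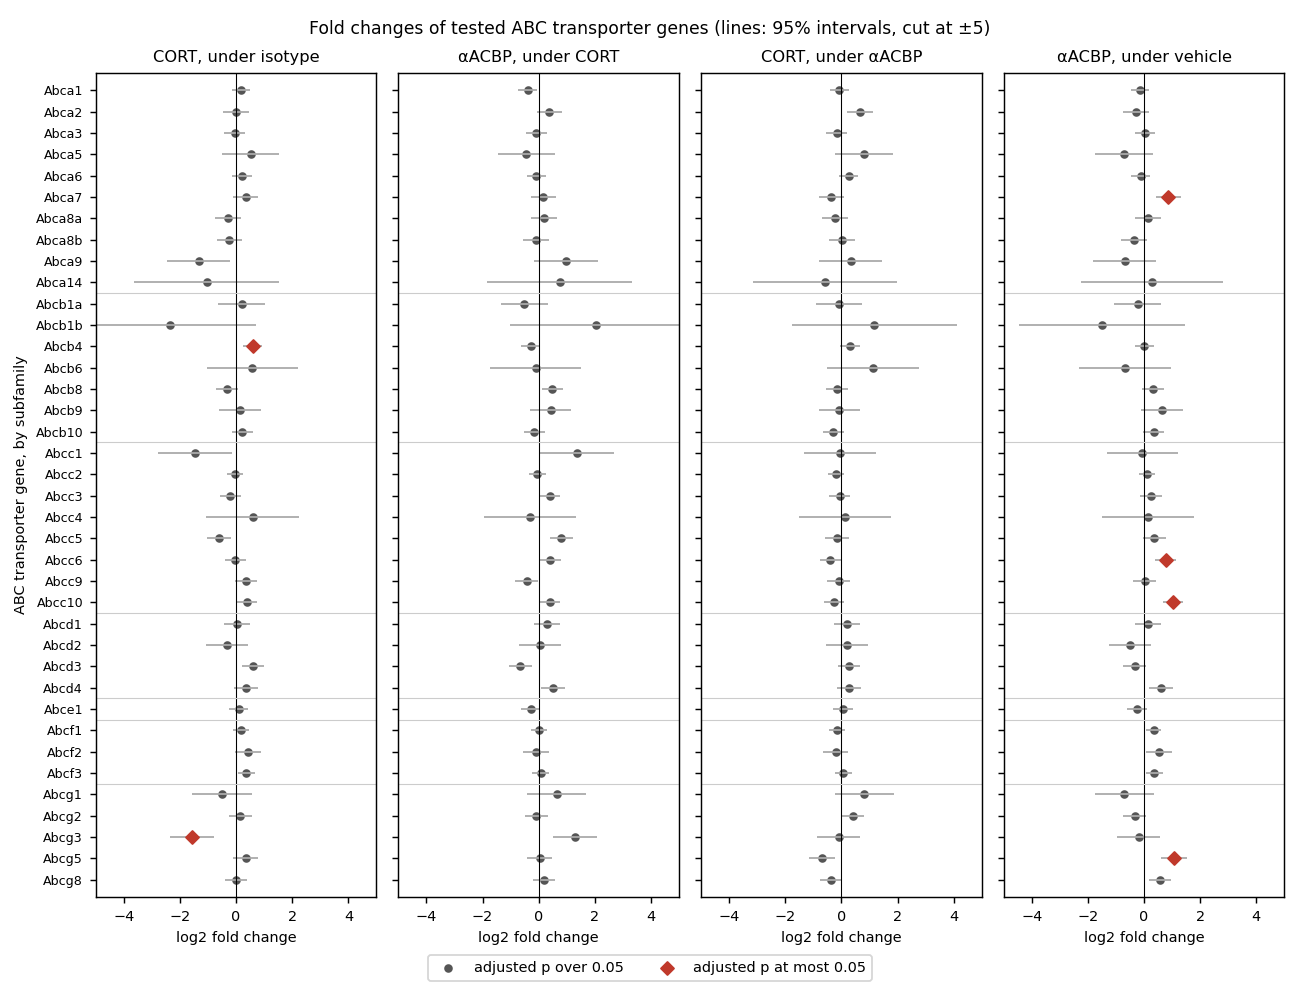
Log2 fold changes of the tested ABC genes, with 1 not plotted, in the 4 comparisons of groups that differ by 1 treatment, ordered by subfamily, with 95% intervals and red diamonds for an adjusted p of at most 0.05. Diamonds stand at Abcb4 and Abcg3 for CORT under isotype and at Abca7, Abcc6, Abcc10 and Abcg5 for αACBP under vehicle, and the other panels have none.

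Among the exporters of sterols and phospholipids (Abca1, Abca7, Abcb4, Abcg1, Abcg5 and Abcg8), 2 of 6 rose with αACBP under vehicle. Of all tested genes 5.14% were called there, and this small set was not tested as a set. Abcg5 CPM were 133, 137, 149, 183 and 195 in Isotype + Vehicle livers, and 212, 300.0, 336, 349 and 461 in αACBP + Vehicle livers. Every αACBP + Vehicle liver was above every Isotype + Vehicle liver, with the highest value in replicate 5. Abcg5 rose by a log2 fold change of 1.06 ± 0.22 (SE; 2.08-fold, edgeR adjusted p = 0.00862; two-sided exact permutation p = 0.00794, the smallest that 5 against 5 livers can give). Its CPM were 123, 137, 206, 259.7 and 280.1 in Isotype + CORT livers and 148, 179, 194, 250.1 and 259 in αACBP + CORT livers. These 2 groups overlapped widely, and the difference with αACBP under CORT was 0.03 on the log2 scale (95% interval -0.42 to 0.49). The difference with CORT under αACBP was -0.69 ± 0.22 and did not pass (edgeR adjusted p = 0.165). The interaction was -1.02 (edgeR adjusted p = 0.171), and the αACBP effects under vehicle and under CORT are therefore not shown to differ.

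Abcg8, the partner of Abcg5, had 68.2, 74.6, 77.3, 99.5 and 129 CPM in Isotype + Vehicle livers and 95.3, 129.6, 133, 142 and 158 in αACBP + Vehicle livers. It was higher by 0.55 ± 0.19 on the log2 scale, which did not pass (edgeR adjusted p = 0.0845; exact permutation p = 0.0397), and the groups overlapped. It had 61.4 to 113 CPM in Isotype + CORT and 80.7 to 117 in αACBP + CORT livers. The ratio of Abcg5 to Abcg8 per kilobase had a median of 1.93 in Isotype + Vehicle, 2.59 in Isotype + CORT, 2.67 in αACBP + Vehicle and 2.33 in αACBP + CORT livers, within 1.62 to 3.17 over all 20 livers. Exons of both genes overlap on opposite strands in a later annotation, over 3.04% of the Abcg5 exon length, and the strand setting of the counting is not given in the sources used here.

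Abca7, a lipid transporter related to Abca1, had 15.05, 15.11, 16.1, 19.8 and 22.4 CPM in Isotype + Vehicle livers and 20.9, 26.1, 29.7, 37.2 and 46.2 in αACBP + Vehicle livers. The groups overlapped by the lowest αACBP + Vehicle liver. Abca7 rose by 0.86 ± 0.22 on the log2 scale (edgeR adjusted p = 0.0241; exact permutation p = 0.0159). The call was kept in 15 of the 20 fits that left out 1 liver (edgeR adjusted p up to 0.0911), and lost without Isotype + Vehicle replicate 1, 2 or 5 or αACBP + Vehicle replicate 1 or 5. In CORT-treated mice it had 18.4 to 25.6 CPM under isotype and 13.8 to 30.7 under αACBP.

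Abcb4 was the gene of this group that rose with CORT under isotype. Its CPM were 156, 186, 199, 212 and 251 in Isotype + Vehicle livers and 234, 261, 295, 333 and 389 in Isotype + CORT livers, so that all but 1 of the CORT livers lay above all vehicle livers. The log2 fold change was 0.59 ± 0.17 (1.504-fold, edgeR adjusted p = 0.0475; exact permutation p = 0.0159). The adjusted p lies just under the limit and passed it in 3 of the 20 fits that left out 1 liver (0.0398 to 0.159). Under αACBP, Abcb4 had 166, 178, 178, 242 and 243 CPM with vehicle and 231, 235, 246, 255 and 279 with CORT, a log2 difference of 0.31 that did not pass (edgeR adjusted p = 0.458). Abca1, which loads cholesterol onto apolipoprotein A-I, had 80.9 to 101 CPM in Isotype + Vehicle, 75.5 to 139.8 in Isotype + CORT, 64.5 to 106 in αACBP + Vehicle and 69.1 to 84.1 in αACBP + CORT livers, and no comparison passed. Abcg1, which exports sterols to lipoproteins, had 0.481 to 6.18 CPM over all livers, and no comparison passed.

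**Figure D4:**
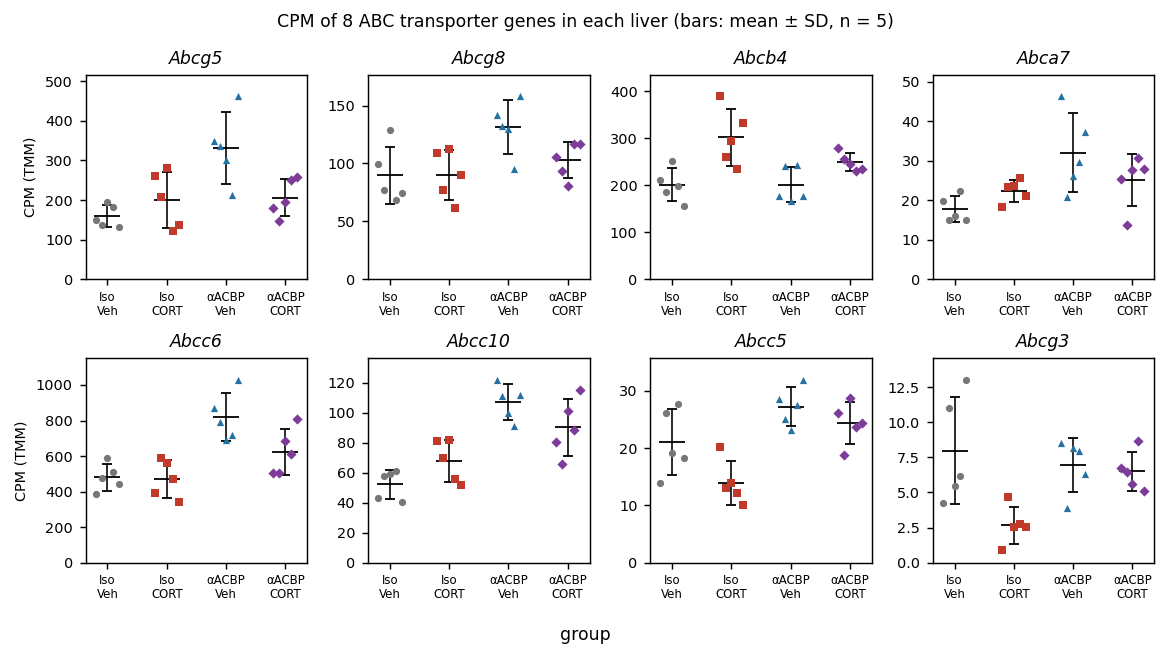
CPM of 8 ABC genes in each liver, from 0, with 5 livers per group and bars for mean ± SD. In Abcg5, Abcc6 and Abcc10, all αACBP + Vehicle livers lie above all Isotype + Vehicle livers. In Abcg3 the Isotype + CORT group has the lowest mean, with 4 of 5 livers at or under 2.74 CPM. Its other liver, at 4.65 CPM, lies within the range of both vehicle groups.

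Among the exporters of conjugates on the basolateral side (Abcc1, Abcc3, Abcc4, Abcc5, Abcc6 and Abcc10), 2 of 6 rose with αACBP under vehicle. Again 5.14% of all tested genes were called, and the set was not tested. Abcc6 had 388, 442, 479, 509.7 and 589 CPM in Isotype + Vehicle livers and 692, 716, 790.2, 871 and 1029 in αACBP + Vehicle livers. The groups did not overlap, and Abcc6 rose by 0.77 ± 0.18 on the log2 scale (1.70-fold, edgeR adjusted p = 0.0180; exact permutation p = 0.00794). It was called in 15 of the 20 fits that left out 1 liver (edgeR adjusted p up to 0.0686), and lost without the same 5 livers as Abca7. In CORT-treated mice it had 339, 393, 469, 559 and 588 CPM under isotype and 503, 504, 609, 685 and 810.0 under αACBP. That difference was 0.41 and did not pass (edgeR adjusted p = 0.350).

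Abcc10, an exporter of lipophilic drugs and conjugates, had 40.2, 43.1, 57.5, 59.4 and 61.0 CPM in Isotype + Vehicle livers and 91.0, 100.045, 111, 112 and 122 in αACBP + Vehicle livers. The groups did not overlap, and the log2 fold change was 1.04 ± 0.18 (2.05-fold, edgeR adjusted p = 0.00238; exact permutation p = 0.00794). Isotype + CORT livers had 51.8, 55.7, 70.0, 80.9 and 81.6 CPM and αACBP + CORT livers 66.0, 80.1, 88.5, 101 and 115. The αACBP + CORT livers all lay above the Isotype + Vehicle livers, by 0.79 ± 0.17 on the log2 scale, which did not pass in edgeR (adjusted p = 0.0782) and did in DESeq2 and voom. Abcc10 and Abcg5 were called with αACBP under vehicle in all 20 fits that left out 1 liver.

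Abcc5, which exports cyclic nucleotides, had 10.1, 12.1, 13.1, 13.9 and 20.2 CPM in Isotype + CORT livers and 18.7, 23.7, 24.4, 26.1 and 28.7 in αACBP + CORT livers. The groups overlapped by 1 liver, and the log2 difference of 0.81 ± 0.21 missed the limit in edgeR (adjusted p = 0.0508; exact permutation p = 0.0159). Isotype + Vehicle livers had 13.97, 18.3, 19.2, 26.2 and 27.6 CPM, and αACBP + Vehicle livers 23.2 to 31.9. Abcc3 had 192 to 387 CPM in Isotype + Vehicle, 188 to 260.3 in Isotype + CORT, 245 to 411 in αACBP + Vehicle and 243 to 351 in αACBP + CORT livers, and no comparison passed. Abcc4 was low, with 0 to 9.90 CPM in all livers but 1, and that liver, Isotype + CORT replicate 5, had 13.9.

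Among the canalicular exporters of drugs and conjugates (Abcb1a, Abcb1b, Abcc2 and Abcg2), 0 of 4 were called in any comparison by edgeR, and Abcg2 with CORT under αACBP was the only difference with an unadjusted p of at most 0.05. Abcc2 had 395 to 439 CPM in Isotype + Vehicle, 362 to 445 in Isotype + CORT, 353 to 539.6 in αACBP + Vehicle and 334 to 434 in αACBP + CORT livers. Abcg2, the exporter of sulfate conjugates and many drugs, had 21.1 to 31.8, 23.0 to 41.5, 14.4 to 27.8 and 25.2 to 32.2 CPM in the same order. Abcb1a, a P-glycoprotein gene, had 3.21 to 14.7 CPM over all livers, and 11.9% of its exon sequence of 100-base words is shared with other genes, Abcb1b and Abcb4 among them. Abcb1b was at or below 1.25 CPM in every group mean.

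Abcb6, Abcb8 and Abcb10, transporters of mitochondria, had no call in edgeR. Of the exon length of Abcb6, 54.3% overlaps another gene model on the same strand and 8.04% overlaps models on the opposite strand. For Abcb10, 21.7% overlaps models on the opposite strand.

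Abcd3 had 216, 222, 248.8, 249.5 and 310.4 CPM in Isotype + Vehicle, 284, 298, 301, 369 and 637 in Isotype + CORT, 156, 184, 203, 212 and 234 in αACBP + Vehicle, and 187, 211, 231, 262 and 304 in αACBP + CORT livers. Isotype + CORT replicate 5 stood apart at 637. With CORT under isotype the log2 difference was 0.60 ± 0.20 (edgeR adjusted p = 0.0959), and 0.33 without that liver (adjusted p = 0.350). With αACBP under CORT it was -0.66 ± 0.20 (adjusted p = 0.109), and -0.39 without that liver (adjusted p = 0.338). Abcd4, which takes part in lysosomal cobalamin release, had 19.4, 20.4, 24.9, 25.2 and 31.2 CPM in Isotype + Vehicle livers. It had 19.4 to 46.0 CPM in Isotype + CORT, 31.3 to 44.1 in αACBP + Vehicle and 34.3 to 63.2 in αACBP + CORT livers. Both αACBP groups lay above Isotype + Vehicle without overlap, by 0.59 and 0.86 on the log2 scale. Neither difference passed in edgeR (adjusted p = 0.0835 and 0.0990). With CORT under isotype Abcd4 was higher by 0.36, which did not pass either (edgeR adjusted p = 0.427).

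The translation factors without membrane domains held no call in edgeR. Abcf1 had means of 62.0 ± 4.14 CPM (SD, n = 5) in Isotype + Vehicle, 70.0 ± 6.06 in Isotype + CORT, 78.5 ± 9.32 in αACBP + Vehicle and 70.5 ± 6.33 in αACBP + CORT livers. Abcf1, Abcf2 and Abcf3 were all higher with αACBP under vehicle, by 0.34, 0.54 and 0.37 on the log2 scale, and none passed. Abcf1 and Abcf3 did not overlap between these groups. The share of all tested genes without overlap was not counted, so that this separation cannot be set against that of other genes. With CORT under isotype the 3 genes were also higher, by 0.18, 0.43 and 0.37, and none passed. Abce1, needed for the recycling of ribosomes, had means of 47.0, 50.3, 39.5 and 41.1 CPM in the group order given for Abcf1. The chromosome 11 genes of subfamily A held 0 calls by edgeR in the 4 comparisons of 1 treatment, with medians of their log2 fold changes between -0.35 and 0.26.

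Abcg3, a gene of rodents related to the drug exporter Abcg2, was the ABC gene with the largest called change with CORT under isotype. Its CPM were 4.22, 5.48, 6.20, 11.01 and 13.01 in Isotype + Vehicle livers and 0.889, 2.51, 2.51, 2.74 and 4.65 in Isotype + CORT livers. The groups overlapped by 1 liver, and Abcg3 fell by 1.58 ± 0.38 on the log2 scale (edgeR adjusted p = 0.0186; exact permutation p = 0.0159). Without Isotype + Vehicle replicate 2 or replicate 5 the adjusted p exceeded the limit, with values up to 0.0807, and 0 ABC genes were called with CORT under isotype. The number called stayed at 2 without Isotype + Vehicle replicate 3, Isotype + CORT replicate 1 (Abcg3 and Abcc5) or 4, or αACBP + Vehicle replicate 5, and was 1 without any other liver. How many of all genes were called in each of these fits is not given here. αACBP + CORT livers had 5.13, 5.57, 6.44, 6.72 and 8.69 CPM, all above the Isotype + CORT livers. That difference was 1.28 ± 0.38 on the log2 scale (edgeR adjusted p = 0.104; exact permutation p = 0.00794). αACBP + Vehicle livers had 3.91, 6.32, 7.98, 8.15 and 8.54 CPM.

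Markers of Kupffer cells and macrophages were low in the same livers. Their summed CPM (11 genes, none at 0 in all livers) was 474 to 938 in Isotype + Vehicle, 160 to 461 in Isotype + CORT, 607 to 998 in αACBP + Vehicle and 601 to 839 in αACBP + CORT livers. With CORT under isotype, 7 of these 11 genes fell, among them Clec4f and Csf1r, while 3.2% of all tested genes were called. With αACBP under CORT 3 of 11 rose, while 0.958% of all tested genes were called. The sum of 5 B cell markers was 17.7 to 34.6 CPM in Isotype + Vehicle and 1.37 to 12.4 in Isotype + CORT livers. It was 13.7 to 36.8 in αACBP + Vehicle and 4.64 to 25.2 in αACBP + CORT livers, with medians of 22.9 and 7.99. The sum of 6 T and NK cell markers was 5.38 to 12.1 in Isotype + Vehicle, 0 to 4.17 in Isotype + CORT, 4.18 to 9.31 in αACBP + Vehicle and 2.47 to 8.06 in αACBP + CORT livers. Abcc1, with 2.81 to 4.68 CPM in Isotype + Vehicle and 0 to 2.96 in Isotype + CORT livers, and Abca9, with 3.20 to 5.89 and 0.326 to 3.42, were also lower with CORT under isotype, but neither passed (edgeR adjusted p = 0.239 and 0.208). The part of these cell markers in the values of Abcg3, Abcc1 and Abca9 was not tested.

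**Figure D5:**
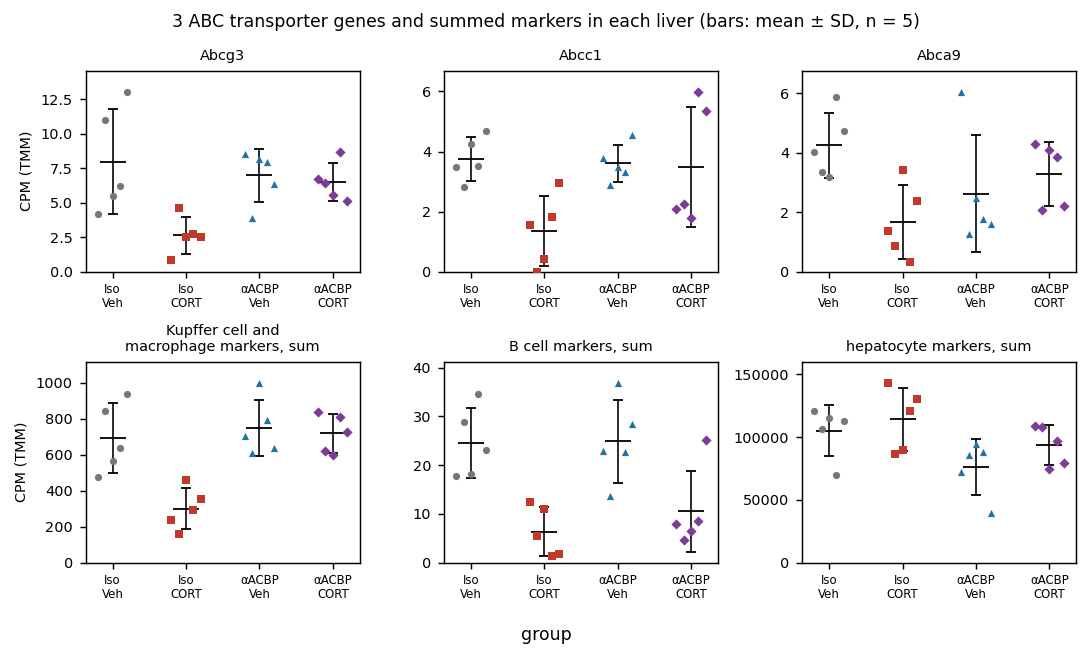
CPM of Abcg3, Abcc1 and Abca9, and summed CPM of Kupffer cell and macrophage, B cell and hepatocyte markers, in each liver, from 0, with bars for mean ± SD of 5 livers. The Isotype + CORT livers are lowest for the macrophage sum, at 160 to 461 CPM, and 1 αACBP + Vehicle liver is lowest for the hepatocyte sum, at 39463 CPM.

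The calls with αACBP under vehicle were set beside the same markers. The hepatocyte sum was 70103 to 120930 CPM in Isotype + Vehicle and 39463 to 94330 in αACBP + Vehicle livers, with a median log2 fold change of -0.49 over 8 genes and 0 called by edgeR. Of 10 stellate cell and fibroblast markers 3 fell, Col3a1, Dcn and Lrat, while 5.14% of all tested genes were called. The 10 markers summed to 436 to 586 and 401 to 482 CPM. Endothelial markers summed to 325 to 482 and 399 to 593 CPM. Of these 9 genes, however, 2 were higher and 7 lower, with a median log2 fold change of -0.22 and 0 called by edgeR. Of the 11 macrophage markers above, 3 were higher and 8 lower with αACBP under vehicle, with a median of -0.32 and 0 called by edgeR. Cholangiocyte markers (7 genes, 6 tested, 0 called by edgeR) summed to 63.5 to 98.1 CPM in Isotype + Vehicle and 29.4 to 74.0 in αACBP + Vehicle livers, with a median log2 fold change of -0.80. The part of these in the ABC calls was not tested. Without αACBP + Vehicle replicate 5, which has the lowest hepatocyte sum, 3 genes were called with αACBP under vehicle, Abcc10 and Abcg5 among them. Without Isotype + Vehicle replicate 1, 2 or 5, or αACBP + Vehicle replicate 1, 2 were called, Abcc10 and Abcg5, and without Isotype + Vehicle replicate 3 there were 6. The shares of all genes called in these fits are not given here.

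Other genes of the transport network were taken from fixed lists. Of all tested genes, 3.2% were called with CORT under isotype, 0.958% with αACBP under CORT and 5.14% with αACBP under vehicle. Of 12 nuclear receptors and sensors, Nr1i3, the xenobiotic receptor CAR, rose with CORT under isotype by 0.95 ± 0.17 on the log2 scale (683 to 1315 CPM in the means, edgeR adjusted p = 0.00155) and with αACBP under vehicle by 0.63 ± 0.17 (adjusted p = 0.0274). Nr1h2, the sterol receptor LXRβ, rose with αACBP under vehicle by 0.63 ± 0.16 (adjusted p = 0.0244) and under CORT by 0.64 ± 0.16 (adjusted p = 0.0493). Of 7 LXR target genes outside the ABC family, 2 fell with CORT under isotype: Pltp, a phospholipid transfer protein, by 1.52 ± 0.25 and Srebf1, the regulator of lipid synthesis, by 0.81 ± 0.22 (adjusted p = 0.00076 and 0.0411). None of the 7 was called by edgeR with αACBP under vehicle, with 4 higher and 3 lower (log2 differences of -0.75 to 0.60). The part of these receptors in the values of the ABC genes was not tested.

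Of 9 NRF2 target genes, Gclm, a subunit of the enzyme that starts glutathione synthesis, rose with CORT under isotype (0.85 ± 0.19, edgeR adjusted p = 0.0103) and fell with αACBP under CORT (-0.78 ± 0.19, adjusted p = 0.0385), as did Ugdh (-0.85 ± 0.19, adjusted p = 0.0190). Gsta4, a glutathione transferase, fell with αACBP under vehicle (-0.83 ± 0.22, adjusted p = 0.0303). Of 8 tested uptake carriers, Slco1b2, which takes up bile salts and drugs from blood, rose with CORT under isotype (0.88 ± 0.16, adjusted p = 0.00162). Of 11 tested sterol trafficking partners, Lrp1, a lipoprotein receptor, rose with CORT under isotype (0.59 ± 0.16, adjusted p = 0.0344) and with αACBP under vehicle (0.75 ± 0.16, adjusted p = 0.00788). Of 14 peroxisome biogenesis genes, Pex11a rose with CORT under isotype (1.05 ± 0.23, adjusted p = 0.0102) and Pex2 fell with αACBP under vehicle (-0.63 ± 0.17, adjusted p = 0.0273).

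Tap1 and Tap2, ABC family genes with other symbols that supply peptides to MHC class I, both fell with CORT under isotype, by 0.81 ± 0.20 and 0.70 ± 0.17 on the log2 scale (edgeR adjusted p = 0.0228 and 0.0189). Tap1 had 36.3 to 56.0 CPM in Isotype + Vehicle, 17.3 to 42.6 in Isotype + CORT, 41.0 to 70.2 in αACBP + Vehicle and 45.3 to 63.7 in αACBP + CORT livers. It rose with αACBP under CORT by 1.06 ± 0.20 (adjusted p = 0.0072), and αACBP + CORT livers all lay above Isotype + CORT livers. Cftr, the chloride channel of the same family, was at or below 0.772 CPM in each group mean and had no call by edgeR.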

How the data were processed

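Liver RNA was sequenced by the authors in read pairs of 150 bases, 5 livers in each of 4 groups defined by the sample labels. Per the study's methods and the submitters' processing notes, reads were aligned with HISAT2 and counted with HTSeq (union mode, with features that were not unique also counted); the notes name mm10 and the paper GRCm39, and the annotation release and strand setting are not given in the sources used here. The authors deposited these raw counts of each liver without normalization, with 14934926 to 20299999 counts on genes per liver. Columns were matched to livers by name.

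Counts were tested in R 4.3.3 with edgeR 4.0.16 (quasi-likelihood, robust, TMM, filter on low counts by group, 16071 genes, 1 model of 4 groups, no covariate), adjusted by Benjamini-Hochberg. The biological coefficient of variation was 0.481. DESeq2 1.42.0 and limma 3.58.1 (voom) were alternatives, with other scalings, filters, the replicate number as a block and each liver left out. Two-sided exact permutation tests of 5 against 5 livers used log2(CPM + 0.5). Fits were tested on simulated data. Any 2 livers of a group differed by at least 12.4 times the counting noise (chi-square per degree of freedom). p-values set the difference between groups against the spread between these livers. The paper states that mice were housed in groups, and cages were not in the model. An effect of cage was therefore not separated from that of treatment. Lengths and overlaps came from GENCODE M39, positions and promoter windows from RefSeq (GRCm38.p6), and M39 coordinates were not used.

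Genes were printed liver by liver, or only as a range over livers, if called in any comparison, among 11 export pumps fixed by name, or among the 5 highest per kilobase. Others named were chosen after their values were seen. The result of 1 gene counted among the calls is not reported here. The members and lists were chosen with earlier results of these data known.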

Additional observations from a re-analysis of the deposited data

Results flagged for a closer look

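In 11 of 156 groups of 5 livers (39 genes in 4 groups), the highest or lowest liver stood apart from the rest, with a gap over 0.71 of the group's range. For independent values of a normal spread, chance gives about 1 in 20. The 39 genes were measured in the same livers, so that the 11 groups cannot be set against that rate. Isotype + CORT replicate 5 stood high for 3 genes: Abca3, a lipid transporter of lysosome-related organelles, at 144 CPM (others 64.5 to 79.0), Abcc4 at 13.9 CPM (others 1.92 to 4.50), and Abcd3 at 637 CPM (others 284 to 369). αACBP + CORT replicate 5 stood high for Abcc4, at 9.08 CPM (others 1.83 to 3.41), and low for Abce1, at 32.7 CPM (others 42.5 to 44.4). Isotype + Vehicle replicate 4 stood low for Abca5, at 1.57 CPM (others 2.94 to 3.37), and for Abcd2, a peroxisomal importer of very long acyl chains, at 24.4 CPM (others 40.2 to 46.0). Isotype + CORT replicate 2 stood low for Abcd2, at 5.61 CPM (others 31.4 to 41.6). Isotype + Vehicle replicate 5 stood low for Abcb9, a lysosomal peptide transporter, at 2.10 CPM (others 4.72 to 5.76). αACBP + Vehicle replicate 1 stood high for Abca9, at 6.03 CPM (others 1.28 to 2.47), and replicate 5 for Abcb1a, at 12.1 CPM (others 3.21 to 5.19). No gene of these 39 passed the test of the difference between the CORT effects under the 2 antibodies.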

How the results depend on the processing

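With CORT under isotype, 2 ABC genes were called; the fold limit, no filter on low counts, library sizes without the 20 most abundant genes, and the replicate block each left 1, and voom and a fit of only the groups compared left 0, while DESeq2 gave 3 (with Abcd3), as did unadjusted p with the fold limit (Abca9, Abcc1 and Abcg3). With αACBP under vehicle, 5 were called, 2 with the fold limit or with unadjusted p and the fold limit, and 8 by DESeq2 and by voom. With αACBP under CORT, where 0 were called, unadjusted p with the fold limit gave 2, DESeq2 3 and at least 10 counts in every liver 1. For both treatments against neither (0 called), DESeq2 and a fit of only the groups compared gave 2 and voom 3. For the interaction (0 called), unadjusted p with the fold limit gave 3. Leaving out 1 liver gave 0 to 2 calls with CORT under isotype, 0 to 1 with αACBP under CORT, 0 to 0 with CORT under αACBP, 2 to 6 with αACBP under vehicle, 0 to 1 for both treatments and 0 to 0 for the interaction. For CORT under isotype and αACBP under vehicle, the shares of all genes called by the other tools, filters and scalings are not given here. The same holds for the fits that left out 1 liver in every comparison. Without those shares, a higher or lower count does not show a stronger or weaker response of the ABC genes. The causes were not tested, except that the fold limit is a stricter rule. No called log2 fold change changed sign. Same-numbered livers are of different mice and their deviations did not correlate (-0.17 to 0.17, median -0.0089), so that the numbers do not pair them; 1 of 20 livers correlated best with its own number. With the replicate block, 4 genes were called with αACBP under vehicle. Other scalings moved the median over all genes by at most 0.0911 (size, log2). Genes under about 0.201 CPM, a limit taken before the TMM correction, are at the floor of this depth.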
